A study of Mus musculus with 33 samples.

Results

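RNA bound by the RNA-binding protein hnRNP R was recovered from NSC34 cells by iCLIP and set against a control precipitation with IgG. NSC34 is a mouse hybrid line made from neuroblastoma cells and motoneuron-enriched spinal cord, used as a motoneuron-like model. In iCLIP (individual-nucleotide crosslinking and immunoprecipitation), ultraviolet light joins protein to RNA, an antibody pulls the protein down, and each cDNA that stops at the joined nucleotide is counted. The tested libraries were replicates 1 and 2 with hnRNP R antibody 1, and the control was 1 library with IgG. All 3 came from the same line, marked WT, grown in serum-containing medium with no treatment. Members were the genes with at least 10 sense-strand cDNAs over these 3 libraries, which were 7473 of 36194 genes in the tables. The whole study had 33 samples, of which 11 were iCLIP libraries. The only other libraries in the main fit were 2 of primary mouse motoneurons with the same antibody. These entered the estimate of the spread and the scaling between libraries, and were not themselves compared with IgG. An alternative fit added the nuclear and cytoplasmic NSC34 libraries of antibody 1 to the hnRNP R group. Whether the replicates came from separate cultures is not stated in the labels, and the spread behind the p-values may therefore be technical.

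hnRNP R belongs to the heterogeneous nuclear ribonucleoproteins, which coat new transcripts and take part in splicing, transport and translation, and it is abundant in neurons. A known partner is 7SK, a nuclear noncoding RNA made by RNA polymerase III. 7SK keeps the transcription elongation kinase P-TEFb inactive, and hnRNPs join the particle when P-TEFb is released. An IgG precipitation shows which RNAs are recovered without a specific antibody, for instance because they are abundant or long.

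The hnRNP R libraries held 456721 and 99762 sense cDNAs in replicates 1 and 2, against 36280 in IgG. Levels are given in CPM, the cDNAs of a gene per 1000000 sense cDNAs of the library, so 1 cDNA was worth 2.19 and 10.0 CPM in hnRNP R replicates 1 and 2 and 27.6 CPM in IgG. A floor of 3 cDNAs in IgG corresponds to 82.7 CPM. Intervals are exact 95% intervals and cover counting error only. Values after ± are approximate SEs, worked back from the log2 ratio and its test statistic. The control was identified by its title, because its file header gives hnRNP R as the protein and the library number 14, which hnRNP R replicate 2 also carries. The experiment number was 2 for IgG and 1 for replicate 2, and replicate 1 carries the library number 13. Of the motoneuron markers, 8 of 11 in the tables had a cDNA and 5 were members, with summed counts of 475 and 72 in hnRNP R replicates 1 and 2 against 46 in IgG. Most of these cDNAs came from Ret (245 and 46 against 26) and Foxp1 (172 and 18 against 13), while Isl1 had 15 and 1 against 0. The neuroblastoma markers, 12 of 12 detected, had 310 and 83 against 37. Microglial markers had 1 and 0 cDNAs in hnRNP R against 0 in IgG, and fibroblast markers had 12 and 1 against 2. The astrocyte markers had 96 and 14 against 4, all from the glutamate transporter gene Slc1a2, and oligodendrocyte markers had 10 and 2 against 0.

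How many RNAs stood apart from the control depended on which libraries entered the fit. In an edgeR quasi-likelihood fit of 5 libraries with Benjamini-Hochberg adjustment over all 7473 genes, 10 genes (0.134%) were higher in hnRNP R iCLIP than in IgG and 29 genes (0.388%) were lower, at an adjusted p under 0.05. In all 39 of these genes both hnRNP R replicates lay on the same side of IgG. This is no separate support, since the same libraries gave the calls. Over all members, both replicates were above IgG in 44% and both below it in 40.2%. The genes that were higher were 7SK, a Y RNA, both mitochondrial rRNAs, Xist and 5 protein-coding genes whose cDNAs lay mostly in introns. The genes that were lower comprised 20 protein-coding genes, 4 short genes annotated as miRNAs, 2 long intergenic RNAs and 3 copies or fragments of small structural RNAs. At an unadjusted p under 0.05, 521 genes were higher and 363 lower, and DESeq2 called 3 higher and 8 lower, all among the 39. The 3 were Rn7sk, the longer mitochondrial rRNA and Xist, and the 8 were Gse1, Unc13a, Cdk8, Galnt2, snoU2-25, a U6 copy, AC091681.1 and AC123039.1. A fit of the 3 NSC34 libraries alone called 99 higher and 91 lower, so that 52.1% of its calls were in the higher direction, against 25.6% in the 5-library fit. Without motoneuron replicate 1 the calls were 80 higher and 87 lower, and without motoneuron replicate 2 they were 82 and 90. With plain library totals in place of trimmed-mean (TMM) scaling the calls were 13 higher and 74 lower, and the median log2 ratio over all genes, 0.25 with TMM, was 0.083. Adding the 2 fractionated antibody 1 NSC34 libraries to the hnRNP R group ended all 10 calls in the higher direction.

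IgG was the shallowest of the 3 NSC34 libraries. It had no cDNA in 1266 members, and 6688 members had fewer than 10 there. At the mean hnRNP R level only 2841 members would yield 3 or more cDNAs in a library as small as IgG, and 707 would yield 10 or more. In CPM, both hnRNP R replicates were above IgG in 3285 members (44%) and below it in 3003 (40.2%). Across the 7473 genes, Spearman's rho was 0.850 between the hnRNP R replicates, 0.655 between replicate 1 and IgG and 0.611 between replicate 2 and IgG, as a description of genes that are not independent and of libraries of unequal depth.

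**Figure D1:**
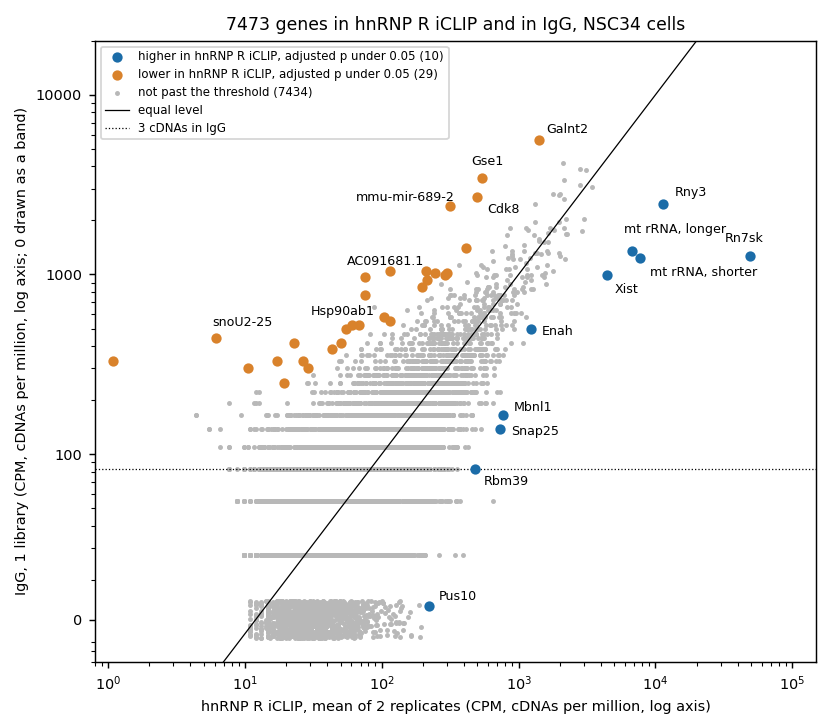
Each point is 1 of 7473 genes, with the mean level of 2 hnRNP R replicates on the x axis and the level in the single IgG library on the y axis, both in CPM on log axes (IgG values of 0 are drawn as a band). Most genes scatter around the line of equal level, Rn7sk lies farthest to the right of it, and the 29 genes that were lower lie above it.

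7SK was the RNA with the most cDNAs in both hnRNP R libraries. The functional gene, Rn7sk (listed as 7SK-ENSMUSG00000065037, chromosome 9, 78023110 to 78023440 on the minus strand of mm9, 331 bases), had 11596 and 7331 cDNAs in hnRNP R replicates 1 and 2, against 46 in IgG. In CPM these were 25390 and 73485 in hnRNP R, against 1268 in IgG (95% Poisson interval 928 to 1691). Replicate 1 was thus 20.0-fold and replicate 2 58.0-fold above IgG, and the groups did not overlap. The fitted log2 ratio was 5.50 ± 0.52 (SE; edgeR adjusted p = 3.67e-07). The replicates themselves differed 2.89-fold.

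Each crosslink site of 7SK carried many cDNAs with hnRNP R. Rn7sk had 101 and 96 crosslink sites in hnRNP R replicates 1 and 2 against 31 in IgG, with 115 and 76.4 cDNAs per site in hnRNP R against 1.48 in IgG. The sites of replicate 1 covered 30.5% of the gene. Counted by sites in place of cDNAs, Rn7sk had a fitted log2 ratio of -0.52. A gene of 331 bases can hold no more than 331 sites, and the part of this limit in the ratio was not tested.

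The tables list 331 genes named 7SK, most of them copies dispersed over the genome, and 19 were members. The other 18 together had 508 and 280 cDNAs in hnRNP R replicates 1 and 2, against 7 in IgG, and none had more than 2 cDNAs in IgG. Each of these copies therefore reached the cDNA minimum for members mainly through the hnRNP R libraries. That selection enters the sums, and its part in them was not tested. None of the 18 passed the threshold, and the lowest adjusted p was 0.133, for Gm23037 on chromosome 17 with 131 and 102 cDNAs in hnRNP R against 2 in IgG. The labels and headers do not say how reads of near-identical copies were divided, so the copies' values are uncertain. As a class, 7SK genes took 2.67% and 7.66% of the cDNAs in hnRNP R replicates 1 and 2, against 0.171% (0.131 to 0.219%) in IgG.

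Each cell fraction of NSC34 was 1 library per antibody, so the shares of 7SK there carry counting error only. They were 30.1% (28.6 to 31.6%) and 15.8% (14.4 to 17.2%) in the cytoplasmic libraries of antibodies 1 and 2. In the nuclear libraries they were 0.471% (0.412 to 0.536%) and 0.320% (0.205 to 0.476%), intervals that overlap, against 0.171% in IgG. In the unfractionated motoneuron libraries it was 1.40% and 1.08%. Rn7sk alone had 20 cDNAs in the nuclear library of antibody 2, which held 7493 cDNAs in all. With the nuclear and cytoplasmic libraries of antibody 1 added to the hnRNP R group, the adjusted p of Rn7sk was 0.794. No library of IgG from a cell fraction was used here.

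The replicates also stood apart in several other small RNAs. The share in replicate 2 divided by that in replicate 1 was 2.87 for 7SK, 3.05 for Y RNAs, 2.90 for U6 and 2.91 for U1. For vault RNAs it was 2.78, from 28 and 17 cDNAs in replicates 1 and 2. It was 1.02 for U2, from 27 and 6 cDNAs, 0.977 for mitochondrial rRNA and 0.930 for protein-coding genes. Ratios of 7SK to 2 of these classes within a library differed less between replicates. There were 4.01 and 3.78 7SK cDNAs per Y RNA cDNA in hnRNP R replicates 1 and 2, against 0.449 in IgG. Per snRNA cDNA there were 17.4 and 18.3 in hnRNP R, against 0.350 in IgG. The snRNA count in the second ratio includes U6, which was lower with hnRNP R than in IgG (377 and 1093 CPM against 3556). The part of this replicate difference in the 7SK result was not tested.

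Y RNAs, small RNAs bound by the Ro60 protein, took 0.666% and 2.03% of the cDNAs in hnRNP R replicates 1 and 2, against 0.380% in IgG. Rny3 (chromosome 6, 47731623 to 47731724, plus strand, 102 bases) had 2533 and 1731 cDNAs in hnRNP R replicates 1 and 2, against 90 in IgG, or 5546 and 17351 CPM against 2481 (1995 to 3049). Both replicates were above IgG, replicate 1 by 2.24-fold and replicate 2 by 6.99-fold. The fitted log2 ratio was 2.41 ± 0.46 (SE; edgeR adjusted p = 0.00705), and the call was lost without NSC34 replicate 2. Rny1, on the other strand of the same chromosome, had 505 and 292 cDNAs in hnRNP R against 46 in IgG, or 1106 and 2927 CPM against 1268. For Rny1 the groups overlapped, since replicate 1 was below IgG and replicate 2 above it, and the adjusted p was 0.491. Counted by sites, Rny3 had a log2 ratio of -1.73, with 57 and 50 sites in hnRNP R against 35 in IgG on its 102 bases.

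Both mitochondrial rRNAs, the RNAs of the mitochondrial ribosome, were higher with hnRNP R and close between replicates. The shorter (AY172335.9, mitochondrial genome 70 to 1024) had 3406 and 785 cDNAs in hnRNP R replicates 1 and 2, against 45 in IgG, or 7458 and 7869 CPM against 1240. Its log2 ratio was 2.82 ± 0.54 (SE; edgeR adjusted p = 0.00705). The longer (AY172335.12, 1094 to 2675) had 3224 and 630 cDNAs against 49, or 7059 and 6315 CPM against 1351, and a log2 ratio of 2.50 ± 0.29 (adjusted p = 1.01e-05). Neither group overlapped the other. Their cDNAs were spread more widely than those of 7SK: the shorter rRNA had 527 and 180 sites in hnRNP R against 29 in IgG. Counted by sites, however, neither passed the threshold, with a log2 ratio of 1.12 (adjusted p = 0.112) for the shorter and 1.17 (adjusted p = 0.0520) for the longer. In the nuclear NSC34 library of antibody 1 the shorter and the longer rRNA had 186 and 145 CPM, and in the cytoplasmic one 9807 and 10927 CPM.

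The other 15 members of the mitochondrial genome, which encodes respiratory chain subunits and tRNAs, did not pass the threshold. mt-Cytb, a subunit of complex III, had 436 and 57 cDNAs in hnRNP R replicates 1 and 2 against 13 in IgG (log2 1.33 ± 0.43, adjusted p = 0.202). mt-Nd6, the subunit of complex I encoded on the opposite strand, had 211 and 21 against 28 (log2 -0.88 ± 0.41, adjusted p = 0.394). Over the 17 members the median log2 ratio was -0.20, against 0.25 over all genes tested.

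Xist, the long noncoding RNA that coats the inactive X chromosome, had 2137 and 421 cDNAs in hnRNP R replicates 1 and 2, against 36 in IgG. In CPM these were 4679 and 4220, against 992 (695 to 1374). The replicates were 4.72-fold and 4.25-fold above IgG, and the log2 ratio was 2.35 ± 0.33 (SE; edgeR adjusted p = 0.000156). Of the hnRNP R cDNAs of Xist, 95.2% lay in its exons, whereas 11 of its 36 cDNAs in IgG lay in introns. Its gene (chromosome X, 100655714 to 100678556, minus strand) overlaps Tsix on the opposite strand. Xist was also recovered in the nuclear NSC34 libraries, with 272 cDNAs (5620 CPM) for antibody 1 and 48 cDNAs (6406 CPM) for antibody 2. Of the 7 members among the long noncoding RNAs listed, Xist alone passed the threshold. MALAT1, a nuclear speckle RNA, had 955 and 190 cDNAs in hnRNP R against 102 in IgG (log2 -0.30 ± 0.26, adjusted p = 0.628). NEAT1, the scaffold of paraspeckles, had 76 and 1 against 24 (log2 -2.29 ± 0.61, adjusted p = 0.0968).

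Among protein-coding genes, 5 of 7210 members were higher, and intronic cDNAs made up most of each, as they did of each whole library. Mbnl1, a splicing regulator of the muscleblind family, had 379 and 70 cDNAs in hnRNP R replicates 1 and 2, against 6 in IgG, or 830 and 702 CPM against 165 (log2 2.41 ± 0.47, edgeR adjusted p = 0.00712). Snap25, a SNARE protein of synaptic vesicle fusion, had 331 and 74 against 5, or 725 and 742 CPM against 138 (log2 2.58 ± 0.49, adjusted p = 0.00705). In both genes the replicates were close to each other and far above IgG.

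Enah, an actin regulator of the Ena/VASP family found in growth cones, had 538 and 130 cDNAs in hnRNP R against 18 in IgG, or 1178 and 1303 CPM against 496. Its fitted ratio, 2.82-fold (edgeR adjusted p = 0.0442), was the smallest among the genes that were higher, and without NSC34 replicate 2 the call was lost. Rbm39, an SR-related splicing factor, had 203 and 51 cDNAs in hnRNP R against 3 in IgG, or 444 and 511 CPM against 82.7 (log2 2.67 ± 0.60, adjusted p = 0.0280). Pus10, a pseudouridine synthase, had 112 and 20 cDNAs in hnRNP R against 0 in IgG. Its mean level with hnRNP R was 2.70-fold above the floor of 3 cDNAs in the IgG library, a chosen floor that does not bound the ratio. It passed the threshold (edgeR adjusted p = 0.0362), and the call was lost without NSC34 replicate 1. Introns held 80.2% of the hnRNP R cDNAs of Mbnl1, 82.5% of Snap25, 96.4% of Enah, 78.7% of Rbm39 and 72.0% of Pus10. For the last, a further 22.7% lay in the 3′ UTR.

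**Figure D2:**
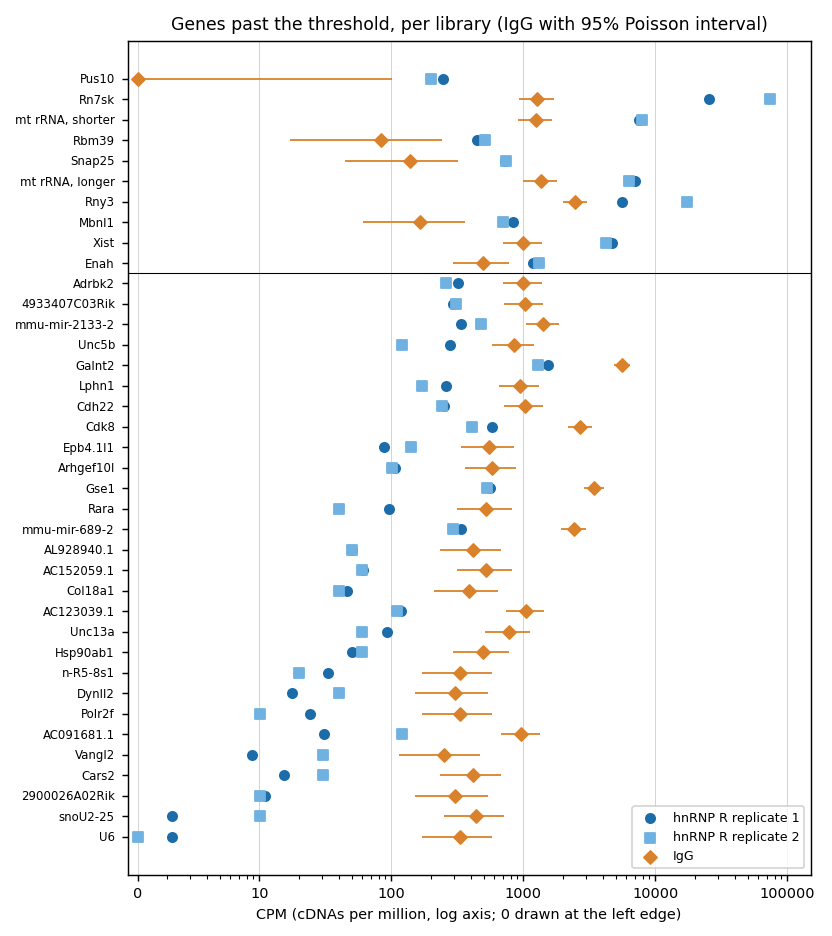
Levels in CPM (log axis, 0 at the left edge) of 38 of the 39 genes that passed the threshold, with 1 point for hnRNP R replicate 1, hnRNP R replicate 2 and IgG and the IgG point carrying its 95% Poisson interval. Genes are ordered by fitted log2 ratio, the 10 that were higher above the line, and Rn7sk has the highest level with hnRNP R.

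Small noncoding RNAs of the nucleus and nucleolus showed another pattern. The class shares described here carry no test, since 2 libraries stand against 1. snoRNAs, which guide rRNA modification, took 0.0368% and 0.0421% of the cDNAs in hnRNP R replicates 1 and 2, against 0.160% in IgG. Nuclear rRNA fragments took 0.00723% and 0.00802%, against 0.0854%. Genes annotated as miRNAs took 0.143% and 0.177%, against 0.642%. In these 3 classes both replicates were below IgG. snRNAs took 0.153% and 0.419%, against 0.488%.

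The spliceosomal snRNAs differed among themselves. U1, which recognises the 5′ splice site, had 841 and 2446 CPM in hnRNP R replicates 1 and 2 against 579 in IgG, from 384 and 244 cDNAs against 21. Replicate 1 was 1.45-fold and replicate 2 4.23-fold above IgG, so the excess in replicate 1 was small beside so few IgG cDNAs. U6, of the catalytic centre, had 377 and 1093 CPM in hnRNP R against 3556 in IgG, from 172 and 109 cDNAs against 129, so both replicates were below IgG. U5 had 85.4 and 200 CPM against 441. U11, of the minor spliceosome, had 23 and 13 cDNAs in hnRNP R against 0 in IgG. Of 24 snRNA members, 0 were higher and 1 lower by edgeR, with 3 higher and 8 lower at an unadjusted p under 0.05. Over all 7473 genes tested, the same counts were 10, 29, 521 and 363. The member that was lower was a U6 copy (U6-ENSMUSG00000070238) with 1 and 0 cDNAs in hnRNP R against 12 in IgG, and the 12 lay at 3 sites. DESeq2 called the same copy and no other snRNA, and by crosslink sites the call was lost.

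**Figure D3:**
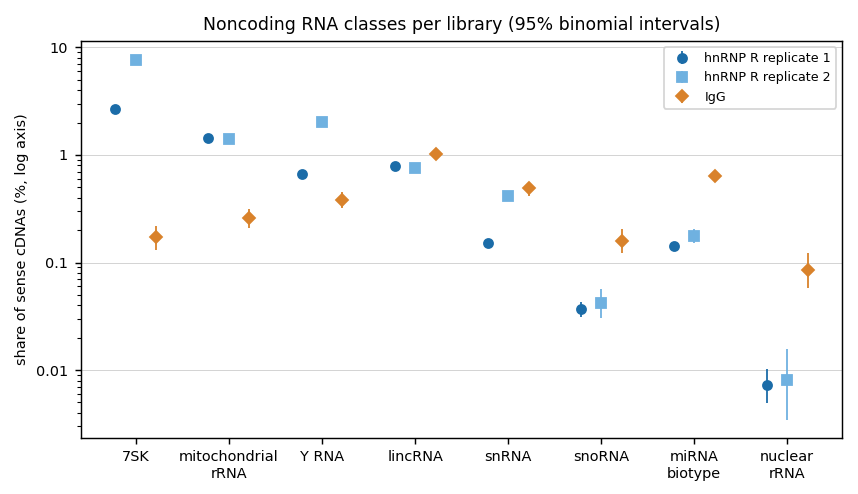
Share of all sense cDNAs (percent, log axis) taken by 8 classes of noncoding RNA in hnRNP R replicate 1, hnRNP R replicate 2 and IgG, with exact 95% binomial intervals. 7SK, mitochondrial rRNA and Y RNA lie above IgG in both replicates, and snoRNA, miRNA-annotated genes and nuclear rRNA lie below it in both.

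Of the genes that were lower with hnRNP R, 3 were small structural RNAs or fragments of them. snoU2-25 had 1 and 1 cDNAs in hnRNP R replicates 1 and 2 against 16 in IgG at 10 sites (log2 -6.50 ± 1.01, edgeR adjusted p = 0.000554). A copy of the 5.8S rRNA gene, n-R5-8s1, had 15 and 2 against 12, a call lost without NSC34 replicate 1, and the U6 copy is described above. Of 9 members annotated as miRNAs, 4 were lower and 0 higher, with a median log2 ratio of -1.97. Over all genes tested, 0.388% were lower and 0.134% higher, with a median of 0.25. mmu-mir-689-2 had 153 and 29 cDNAs in hnRNP R against 87 in IgG, or 335 and 291 CPM against 2398 (log2 -2.73 ± 0.40, adjusted p = 0.000282). mmu-mir-2133-2 had 155 and 48 against 51, or 339 and 481 CPM against 1406 (log2 -1.67 ± 0.33, adjusted p = 0.00837). AC123039.1 had 54 and 11 against 38, and AL928940.1, which lies inside Camk1d on the same strand, had 23 and 5 against 15. At these loci the cDNAs sat on few positions in every library, such as 15 and 6 sites in hnRNP R against 15 in IgG for mmu-mir-689-2. By crosslink sites 3 of the 4 lost the call, mmu-mir-2133-2, AC123039.1 and AL928940.1, and without NSC34 replicate 1 mmu-mir-2133-2 and AL928940.1 lost it.

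Both long intergenic RNAs that were lower had few cDNAs. AC091681.1 had 14 and 12 cDNAs in hnRNP R replicates 1 and 2 against 35 in IgG, the 35 at 3 sites, and AC152059.1 had 28 and 6 against 19. By crosslink sites AC091681.1 did not pass the threshold.

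Among the 29 lower genes, coding or not, 19 had over 50% of their hnRNP R cDNAs in introns. Introns also held most of all cDNAs, 77.3% and 70.7% in hnRNP R replicates 1 and 2 and 76.2% in IgG. Gse1 had 255 and 53 cDNAs in hnRNP R replicates 1 and 2 against 125 in IgG, or 558 and 531 CPM against 3445 (2868 to 4105). Its log2 ratio was -2.47 ± 0.27 (SE; edgeR adjusted p = 5.38e-06), the lowest adjusted p among the lower genes. Cdk8, the kinase of the Mediator complex, had 265 and 41 against 98, or 580 and 411 CPM against 2701 (log2 -2.21 ± 0.28, adjusted p = 4.34e-05). Unc13a, which primes synaptic vesicles for release, had 42 and 6 against 28, or 92.0 and 60.1 CPM against 772 (log2 -3.03 ± 0.44, adjusted p = 0.000260). In each of the 3 genes both replicates were far below the interval of IgG.

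Galnt2, an enzyme of O-linked glycosylation, had the most cDNAs of any gene in IgG. It had 696 and 128 cDNAs in hnRNP R replicates 1 and 2 against 203 in IgG, or 1524 and 1283 CPM against 5595 (log2 -1.80 ± 0.27, edgeR adjusted p = 0.000388). The interval given for Galnt2 in the tables spans 4435 kb of chromosome 8 and holds 158 other genes, 58 of them on the same strand and Gse1 among them. Its value therefore cannot be assigned to Galnt2 alone, and its antisense counts of 1629 and 369 in hnRNP R against 208 in IgG come from the same interval.

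A further 5 protein-coding genes that were lower had between 19 and 37 cDNAs in IgG. The netrin receptor Unc5b had 126 and 12 cDNAs in hnRNP R replicates 1 and 2 against 31 in IgG, and the adhesion receptor Lphn1 had 119 and 17 against 34. The cadherin Cdh22 had 115 and 24 against 37, and Adrbk2, a kinase that acts on G protein-coupled receptors, had 146 and 26 against 36. Each of these had a fitted log2 ratio between -1.86 and -1.55. Adrbk2 lost its call without either NSC34 replicate, and Unc5b lost it without replicate 2. The retinoic acid receptor Rara, a ligand-controlled transcription factor, had 44 and 4 against 19.

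Counts were small in much of this group. Of the 29 lower genes, 13 had fewer than 20 cDNAs in IgG and 14 had fewer than 10 in hnRNP R replicate 2. The planar polarity gene Vangl2 had 4 and 3 cDNAs in hnRNP R against 9 in IgG, the mitochondrial cysteinyl-tRNA synthetase Cars2 had 7 and 3 against 15, and the dynein light chain Dynll2 had 8 and 4 against 11. The RNA polymerase subunit gene Polr2f had 11 and 1 against 12, and all 12 were at 2 sites; by crosslink sites the call was lost. The collagen gene Col18a1 had 21 and 4 against 14, Arhgef10l had 49 and 10 against 21, Epb4.1l1 had 40 and 14 against 20, 4933407C03Rik had 133 and 31 against 37 and 2900026A02Rik had 5 and 1 against 11. Without NSC34 replicate 1, Vangl2, Dynll2, Col18a1, Epb4.1l1, 4933407C03Rik and 2900026A02Rik lost the call. By chromosome, 7 of the 29 lower genes lay on chromosome 8, which holds 5.18% of the genes tested, and 4 lay on chromosome 5, which holds 7.21%. This count was made after the values were seen.

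Hsp90ab1, a cytosolic chaperone, was lower and was recovered mostly from coding sequence. It had 23 and 6 cDNAs in hnRNP R replicates 1 and 2 against 18 in IgG, or 50.4 and 60.1 CPM against 496 (log2 -3.05 ± 0.55, edgeR adjusted p = 0.00365). Of the hnRNP R cDNAs of Hsp90ab1, 65.5% lay in coding sequence, and 17 of its 18 cDNAs in IgG did.

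The 6 genes with the most intronic cDNAs over the 3 libraries differed in their level in IgG. Tmtc2, Pcbp3, Maml3 and Grip1 had 108, 136, 139 and 113 intronic cDNAs there, and Dlg2 and Gpc6 had 63 and 73. Tmtc2, a transmembrane protein of the endoplasmic reticulum, had 1610 and 330 cDNAs in hnRNP R replicates 1 and 2 against 111 in IgG, or 3525 and 3308 CPM against 3060 (log2 0.35 ± 0.25, edgeR adjusted p = 0.585). Pcbp3, an RNA-binding protein, had 3140 and 3047 CPM in hnRNP R against 3831 in IgG, and Grip1, a scaffold of glutamate receptors, had 3057 and 2606 against 3142. Their log2 ratios were -0.12 ± 0.25 and 0.040 ± 0.25, and the sign for each turned with at least 1 other setting. Maml3, a Notch coactivator, had 2978 and 2676 CPM against 3886 (log2 -0.27 ± 0.28). Gpc6, a glypican, had 3166 and 2827 against 2040 (log2 0.74 ± 0.28, adjusted p = 0.278), and Dlg2, a postsynaptic scaffold, had 3260 and 2546 against 1736 (log2 0.93 ± 0.30, adjusted p = 0.191). None of these 6 genes passed the threshold, and the calcium channel gene Trpm3 came closest among the most abundant genes (2126 and 2205 against 1213 CPM, log2 1.02 ± 0.29, adjusted p = 0.125).

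Other genes high in IgG had lower levels with hnRNP R without passing the threshold. Tshz2 had 2205 and 1985 CPM in hnRNP R replicates 1 and 2 against 4162 in IgG (log2 -0.80 ± 0.24, edgeR adjusted p = 0.151). Dgki had 2165 and 2095 against 3363, and Slco3a1 had 1868 and 1694 against 2811. The log2 ratio of Dgki was -0.47 ± 0.26 and that of Slco3a1 was -0.47 ± 0.27.

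The gene of hnRNP R itself, its paralog and a known target did not pass the threshold. Hnrnpr had 72 and 14 cDNAs in hnRNP R replicates 1 and 2 against 7 in IgG, or 158 and 140 CPM against 193 (log2 -0.17 ± 0.58, edgeR adjusted p = 0.955). Syncrip, the close paralog also called hnRNP Q, had 113 and 16 against 3, or 247 and 160 CPM against 82.7 (log2 1.57 ± 0.69, adjusted p = 0.366). Actb, the beta-actin mRNA whose axonal transport is linked to hnRNP R, had 30 and 6 against 7, or 65.7 and 60.1 CPM against 193 (log2 -1.41 ± 0.69, adjusted p = 0.429). For Actb both replicates were below IgG, at an unadjusted p of 0.0525.

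Gene groups around RNA metabolism had few calls, and DESeq2 called none of the genes in the groups described here and in the next paragraph. For comparison, over all 7473 genes tested, 10 were higher (0.134%) and 29 lower (0.388%) by edgeR. At an unadjusted p under 0.05, 521 of the 7473 were higher and 363 lower. Of 27 hnRNP genes, 0 passed the edgeR threshold in either direction, with 4 higher and 1 lower at an unadjusted p under 0.05, and 19 had a log2 ratio above 0 (median 0.79, against 0.25 over all genes tested). Hnrnpu had 329 and 70 cDNAs in hnRNP R replicates 1 and 2 against 28 in IgG (log2 0.065 ± 0.34), and Hnrnpab had 162 and 37 against 5 (log2 1.56 ± 0.56, adjusted p = 0.256). Of 16 SR splicing factors 1 was higher, Rbm39, and 0 were lower (median 0.37). Sfrs1, the founding SR protein, had 154 and 39 against 5 (log2 1.54 ± 0.57, adjusted p = 0.268), and Tra2b had 166 and 24 against 3 (log2 2.12 ± 0.65, adjusted p = 0.166). Of 44 neuronal and other RNA-binding proteins 1 was higher, Mbnl1, and 0 were lower (median 0.20). Of 7 proteins of the 7SK particle and P-TEFb, 0 were called, with 1 higher and 0 lower at an unadjusted p under 0.05 (median -0.38).

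Cytoskeletal, disease and translation genes also had few calls. Of 31 actin genes 1 was higher, Enah, and 0 were lower (median -0.11). Of 21 tubulin and microtubule genes and 27 motoneuron disease genes 0 were called, with medians of 0.058 and 0.16. Ewsr1, an RNA-binding protein of the FET family, had 261 and 57 cDNAs in hnRNP R replicates 1 and 2 against 7 in IgG (log2 1.74 ± 0.47, edgeR adjusted p = 0.0968). Of 20 translation factors and 33 cytosolic ribosomal protein genes 0 were called, with medians of -0.089 and -0.20. Of 23 chaperone genes 1 was lower, Hsp90ab1, and 0 were higher (median 0.17). At an unadjusted p under 0.05, 2 tubulin, 2 disease, 1 translation and 0 ribosomal protein genes were higher and 3, 2, 4 and 3 lower. Of 26 cell cycle, 12 housekeeping, 10 histone and 6 neurofilament genes 0 were called by edgeR, with 2, 3, 0 and 0 higher and 1, 0, 2 and 0 lower at an unadjusted p under 0.05.

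The libraries differed in where within genes the cDNAs lay. Coding sequence held 6.84% and 6.87% of the cDNAs in hnRNP R replicates 1 and 2, against 12.1% (11.8 to 12.5%) in IgG. 3′ UTRs held 9.29% and 9.23%, against 7.39% (7.13 to 7.67%). 5′ UTRs held 0.333% and 0.333%, against 1.03%. In these 3 segments the replicates were nearly equal and lay on the same side of IgG. Per kilobase of segment, 3′ UTRs had 6.18 and 6.14 CPM in hnRNP R against 4.92 in IgG, and coding sequence had 2.49 and 2.51 against 4.43.

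Introns and noncoding RNA held a share that differed between the replicates. Introns held 77.3% and 70.7% of the cDNAs in hnRNP R replicates 1 and 2, against 76.2% in IgG, and noncoding RNA held 6.25% and 12.8%, against 3.27%. Without 7SK genes the mean intronic share was 1.70 percentage points above IgG, and with them it was 2.16 points below it. By total intron length the libraries were close. Genes with more than 400 kb of intron held 13.3% and 13.0% of intronic cDNAs in hnRNP R against 13.9% in IgG, and those with under 10 kb held 3.92% and 4.22% against 4.72%.

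The ratio of 3′ UTR to coding cDNAs was 1.36 and 1.34 in hnRNP R replicates 1 and 2, against 0.609 (0.581 to 0.640) in IgG. In the other 8 hnRNP R libraries of the series, from both antibodies, both cell types and both fractions, it was between 1.09 and 2.13. The lowest bound of any of these intervals was 1.03, so all 10 hnRNP R libraries lay above IgG. The coding cDNAs of IgG were spread over 2659 genes, and its top 10 genes held 4.59% of them, against 5.74% and 4.55% in the hnRNP R replicates. With a single control library this ratio has no test.

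**Figure D4:**
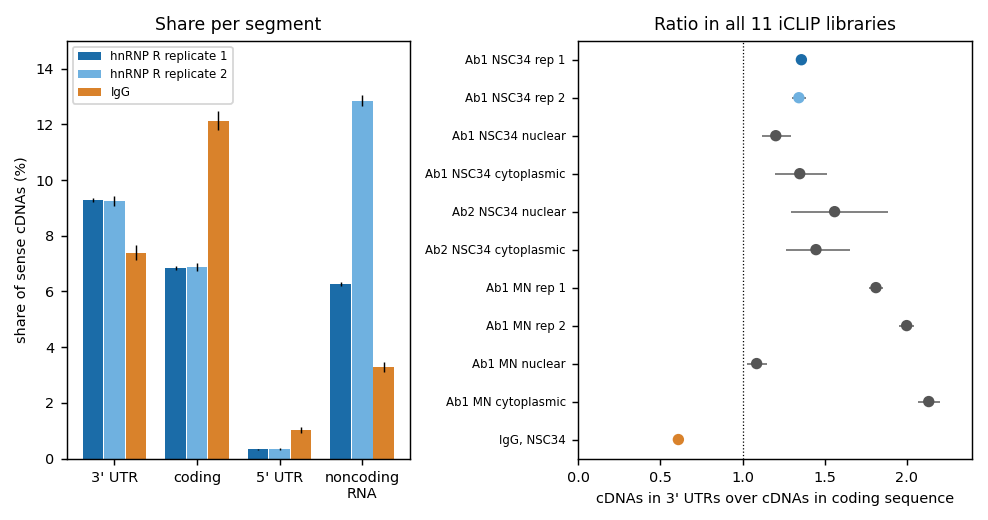
Left, share of sense cDNAs (percent) in 3′ UTRs, coding sequence, 5′ UTRs and noncoding RNA in hnRNP R replicate 1, hnRNP R replicate 2 and IgG, with exact 95% intervals. Right, cDNAs in 3′ UTRs over those in coding sequence in all 11 iCLIP libraries (Ab, antibody; MN, motoneuron), where the 10 hnRNP R libraries lie above 1 and IgG below it.

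Gene by gene, the segments gave few calls. Each segment was fitted with the scaling of the whole-gene fit, so its share of the library enters the ratio of each of its genes. 3′ UTRs held a larger share in hnRNP R than in IgG, which raises the ratios there. In 3′ UTRs, 0 of 1501 genes were higher (0%) and 4 were lower (0.266%) by edgeR. At an unadjusted p under 0.05, 95 were higher and 23 lower, and a fit of the 3 NSC34 libraries alone also called 0 higher. IgG had no 3′ UTR cDNA in 687 of the 1501 genes. Scd2, a fatty acid desaturase, had the most 3′ UTR cDNAs, 375 and 96 in hnRNP R replicates 1 and 2 against 18 in IgG (log2 1.03 ± 0.60, adjusted p = 0.563). Ppp1cb, a catalytic subunit of protein phosphatase 1, had 167 and 43 against 2 (log2 3.00 ± 0.94, adjusted p = 0.261). In Hnrnpab, 128 and 30 against 1 lay in the 3′ UTR (log2 3.53 ± 1.10, adjusted p = 0.261). These 3 genes were chosen after their values were seen. The genes that were lower, Arf3, Dynll2, Agpat1 and Acin1, had 13, 7, 7 and 8 cDNAs in IgG, and without NSC34 replicate 1 none passed the threshold.

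In introns, 3 of 6334 genes were higher (0.0474%) and 14 lower (0.221%). Mbnl1 had 310 and 50 intronic cDNAs in hnRNP R replicates 1 and 2 against 2 in IgG (log2 3.62 ± 0.64, edgeR adjusted p = 0.0117). Snap25 had 279 and 55 against 4 (log2 2.58 ± 0.53, adjusted p = 0.0380). A gene listed as Hsn2-ENSMUSG00000045962 had 208 and 46 against 2 (log2 3.21 ± 0.66, adjusted p = 0.0380). Without NSC34 replicate 1 none of the genes was called higher, and without replicate 2 there was 1. The 14 lower genes were led by Gse1, with 237 and 48 intronic cDNAs in hnRNP R against 119 in IgG, and Cdk8, with 258 and 41 against 97.

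In coding sequence, 0 of 1061 genes were higher (0%) and 11 were lower (1.04%) by edgeR. At an unadjusted p under 0.05, 17 were higher and 76 lower. The scaling came from the whole-gene fit, and coding sequence held 6.84% and 6.87% of hnRNP R cDNAs against 12.1% in IgG. That difference enters the ratio of every coding gene, so the lean to lower is not a separate gene-by-gene result. With TMM scaling within the segment, fewer genes were lower and some were higher. A fit of the 3 NSC34 libraries alone called 0 higher and 13 lower. Mtap1b, a microtubule-associated protein of growing axons, had 70 and 9 coding cDNAs in hnRNP R replicates 1 and 2 against 38 in IgG (log2 -2.81 ± 0.52). Over the whole gene Mtap1b had 912 and 192 against 101, with a log2 ratio of -0.32 ± 0.27 (adjusted p = 0.631). Mki67, a marker of dividing cells, had 33 and 4 coding cDNAs against 20, and Hsp90ab1 had 15 and 4 against 17. Without either NSC34 replicate none of the 11 was called.

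Antisense cDNAs are those on the strand opposite to a gene. They can belong to another gene there, such as the 100 on the other strand that overlap the Galnt2 interval. Their share is therefore not a measure of background alone. Antisense cDNAs made up 4.30% (4.24 to 4.36%) and 4.78% (4.66 to 4.92%) of the cDNAs in genes in hnRNP R replicates 1 and 2, against 5.51% (5.28 to 5.74%) in IgG. In noncoding RNA they were 0.879% and 0.489%, against 4.12%. In introns they were 4.75% and 5.85%, against 6.30%. In the 3 exonic segments of mRNAs the order was the other way. Antisense cDNAs were 3.90% and 3.64% in hnRNP R against 2.72% in IgG in coding sequence, 2.95% and 3.02% against 2.19% in 3′ UTRs, and 6.23% and 6.48% against 5.54% in 5′ UTRs. Across the other hnRNP R libraries the antisense share was between 2.11% and 12.1%, so the value of IgG lay within their range.

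Crosslink sites counted 403777 and 87207 in hnRNP R replicates 1 and 2, against 35166 in IgG, or 1.13 and 1.14 cDNAs per site against 1.03. A cDNA was found for 13972 and 10071 genes in hnRNP R, against 8120 in IgG. At the depth of IgG the hnRNP R libraries would be expected to reach 7438 and 7353 genes, fewer than the 8120 that IgG reached.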

How the data were processed

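The cDNA count of each gene, strand and segment was made by the authors and deposited as whole numbers, with 1 table per iCLIP library. The file headers name mm9 as the build and release 59 of Ensembl as the annotation. The deposited tables also give a density signal, the cDNA count divided by segment length, from which segment lengths were taken. For the aligner, the trimming and the handling of identical reads nothing is stated in the labels or headers. Coordinates are written counting from 1. A further 1056 per-sample columns were not used.

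Sense cDNAs per gene entered edgeR 4.0.16 under R 4.3.3 (TMM scaling, quasi-likelihood test, Benjamini-Hochberg, threshold 0.05) on genes with at least 10 cDNAs over the 3 NSC34 libraries. The fit held 5 libraries, hnRNP R NSC34 and motoneuron replicates and IgG, which share 1 estimate of the spread that IgG, with a single library, is taken to follow. TMM scaling was also computed over all 5. The median log2 ratio was 0.25 in this fit and 0.28 in the fit of the 3 NSC34 libraries. The SE was taken as the absolute log2 ratio over the square root of the F statistic of the quasi-likelihood test. It is therefore approximate and was not estimated by the fit itself. Segments were fitted alike with the scaling of the gene fit. The procedure was run on simulated data in which every library, IgG included, had the same fixed spread. That run cannot show whether the single IgG library follows the shared spread. Alternatives included DESeq2 1.42.0. Python 3.11.15, pandas 2.3.3, scipy 1.17.1 and matplotlib 3.10.9 gave tables, exact intervals and plots.

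Members, gene lists and tests were chosen with earlier results of these data known. Named genes were the 15 highest with hnRNP R, the 10 highest in IgG, the 10 largest and 10 smallest ratios among called genes, up to 6 per list, up to 6 called per segment, and 7SK genes, Hnrnpr, Syncrip and Actb. The other called genes were added after their values were seen. The values of 1 called gene and 2 list members are not reported here.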

Additional observations from a re-analysis of the deposited data

How the results depend on the processing

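The count of genes higher with hnRNP R than with IgG, 10, was 24 with library totals without 7SK, 3 with DESeq2, 99 in a fit of the 3 NSC34 libraries, 29 with no filter on low counts, 24 with both strands and 0 with the fractionated antibody 1 libraries added. Leaving out 1 replicate gave between 8 and 82, the high values without motoneuron replicate 1 or 2. The count of lower genes, 29, was 74 with library totals, 75 without 7SK in them, 8 with DESeq2, 91 in the 3-library fit, 57 with both strands and 19 with the fractionated libraries, and between 28 and 90 with 1 replicate left out. Where NSC34 replicate 1 was left out the higher count was 23, and without replicate 2 it was 8. In segments, TMM scaling within the segment gave 0 lower genes in 3′ UTRs, 8 higher and 24 lower in introns, and 4 higher and 4 lower in coding sequence. The 3-library fit gave 58 higher and 46 lower in introns. Leaving out 1 NSC34 replicate gave 0 to 1 lower in 3′ UTRs, 0 to 1 higher and 3 to 4 lower in introns, and 0 lower in coding sequence. The causes were not tested.

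The hnRNP R mean minus IgG of the noncoding share, 6.27 percentage points, was -0.358 by crosslink sites and 1.54 without 7SK, and 2.98 to 9.57 with 1 replicate left out. For introns, -2.16 points became 3.60 by sites, 1.70 without 7SK and -5.45 to 1.13 with 1 replicate left out, the last without replicate 2. For coding sequence, -5.28 points became -4.92 by sites, -4.92 without 7SK and -4.93 in genes with at least 10 cDNAs. For 5′ UTRs, -0.701 became -0.676, -0.684 and -0.615 in the same order. For 3′ UTRs, 1.87 became 2.36 both by sites and without 7SK. For antisense, -0.963 became -0.576 by sites and -0.487 in genes with at least 10 cDNAs.

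Among the 39 called genes, 494 of 577 comparisons with an alternative kept the call and 81 lost it. Gse1, Unc13a and snoU2-25 kept it in every alternative that gave a value. Rn7sk (-0.52) and Rny3 (-1.73) reversed by crosslink sites. Of uncalled genes near 0, Grip1 turned to -0.026 with size factors, -0.14 with library totals, -0.074 without 7SK in them, -0.027 with DESeq2, -0.19 with at least 30 cDNAs, -0.033 to 0.13 with 1 replicate left out (the low end without NSC34 replicate 1) and -0.27 with the fractionated libraries. With no filter, Pcbp3 turned to 0.15, Maml3 to 2.59e-05 and Hnrnpr to 0.12. With 36280 cDNAs in the single IgG library, 1 cDNA there was worth 27.6 CPM, which bounds the precision of every comparison. No paired analysis was possible because IgG has 1 library. IgG shares the library number 14 with hnRNP R replicate 2, while replicate 1 has the library number 13. Whether IgG and replicate 2 were prepared together is not stated, and the part of this in the difference between the replicates was not tested.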
